A study of Brassica rapa with 36 samples.

Results

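Heat shock was examined in isolated microspores of the Brassica rapa line 49CX, which the series describes as non-inducible to androgenesis. The comparison used 6 of the 36 RNA-seq libraries of the series, chosen by their labels: 3 of 49CX microspores after heat shock (heated) and 3 of 49CX microspores without heat shock (unheated). The labels give no temperature or duration, and no plant age. Nothing ties the replicates to separate plants or cultures, so each p-value reflects library-to-library spread that could be purely technical. The 3 libraries of 49CX late unicellular microspores, and the matching heated, unheated and late libraries of the inducible line K2, entered the same model and are given beside the 49CX values.

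A microspore is the haploid product of meiosis from which a pollen grain normally forms. In androgenesis a stress such as heat turns some microspores from pollen formation to embryo formation, and genotypes of Brassica differ widely in how readily this happens. In plants generally, heat activates heat stress transcription factors and the chaperone genes they control. The tables carry gene IDs without names, and 0 of the 47135 IDs matched the RefSeq gene table of assembly CAAS_Brap_v3.01, so these gene families were not looked up here and no sequence is shown. Genes are described below by where else in the series they are expressed.

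Heated 49CX libraries held 107928 to 162112 gene counts and unheated ones 150209 to 239346, while 49CX late libraries held 85651 to 113517. A floor of 3 counts corresponded to 18.5 to 27.8 CPM (gene counts scaled to a common total, in the usual unit CPM) in heated and 12.5 to 19.97 CPM in unheated libraries. Across the 9376 genes tested, log2 CPM of replicates had a Pearson r of 0.817 to 0.853 among heated and 0.897 to 0.917 among unheated libraries, and 0.777 to 0.831 between them; genes are not independent replicates. Reads in no annotated gene made up 70.0%, 71.1% and 70.0% in the heated libraries and 71.7%, 65.1% and 60.1% in the unheated ones. The groups overlapped in this share, and its part in the results below was not tested.

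The first question was which genes heat changed in the line that does not form embryos. The genes called higher rose from a lower median level, and by more, than the genes called lower fell. Rare transcripts needed larger changes to be called, and the part of this in the contrast was not tested. More genes fell than rose in the fit used, and the order was reversed when libraries were scaled by size alone. Of the 9376 genes, 350 were called higher and 524 lower in heated than in unheated 49CX (quasi-likelihood test of edgeR, p adjusted by Benjamini-Hochberg, threshold 0.05). The called share was 9.32%, with 3.73% higher and 5.59% lower, and 2043 genes had an unadjusted p under 0.05. The CPM of the 3 heated and 3 unheated libraries did not overlap for 329 of the genes called higher and 510 of those called lower, and for 26.8% of all genes tested.

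The genes called higher had a median log2 change of 2.01 (1.94 with the 16 genes that had 0 counts in every unheated library set at their lower bound). Those called lower had a median log2 change of -1.10. At least 4-fold changes numbered 176 higher (169 with such genes at their bound) and 37 lower, and at least 2-fold changes 333 higher and 313 lower. Genes called higher had a median level of 104.7 CPM in heated and 24.1 CPM in unheated libraries. Genes called lower had a median level of 156 CPM in heated and 339 CPM in unheated libraries. These levels describe the called genes and are no further test of them.

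The number of genes called lower depended on how the libraries were scaled. Scaling by library size alone gave 549 genes higher and 228 lower, and the 18-library fit with scaling factors computed from the 6 compared libraries gave 582 higher and 206 lower. Relative to the factors used here, these shift the median log2 change of all genes by 0.24 and 0.27. A fit of the 6 libraries alone, in which the low-count filter left 3139 genes, gave 331 higher and 262 lower. Over those same 3139 genes the 18-library fit called 157 higher and 468 lower, so the balance of higher and lower calls reversed on identical genes. The other calls of the 18-library fit, 193 higher and 56 lower, fell on genes that the filter of the 6 libraries removed. All 350 genes called higher, and 206 of the 524 called lower, were called in the same direction under each of the 4 scalings of the 18-library fit. Of these, 157 higher and 186 lower were also called in the fit of 6 libraries.

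**Figure D1:**
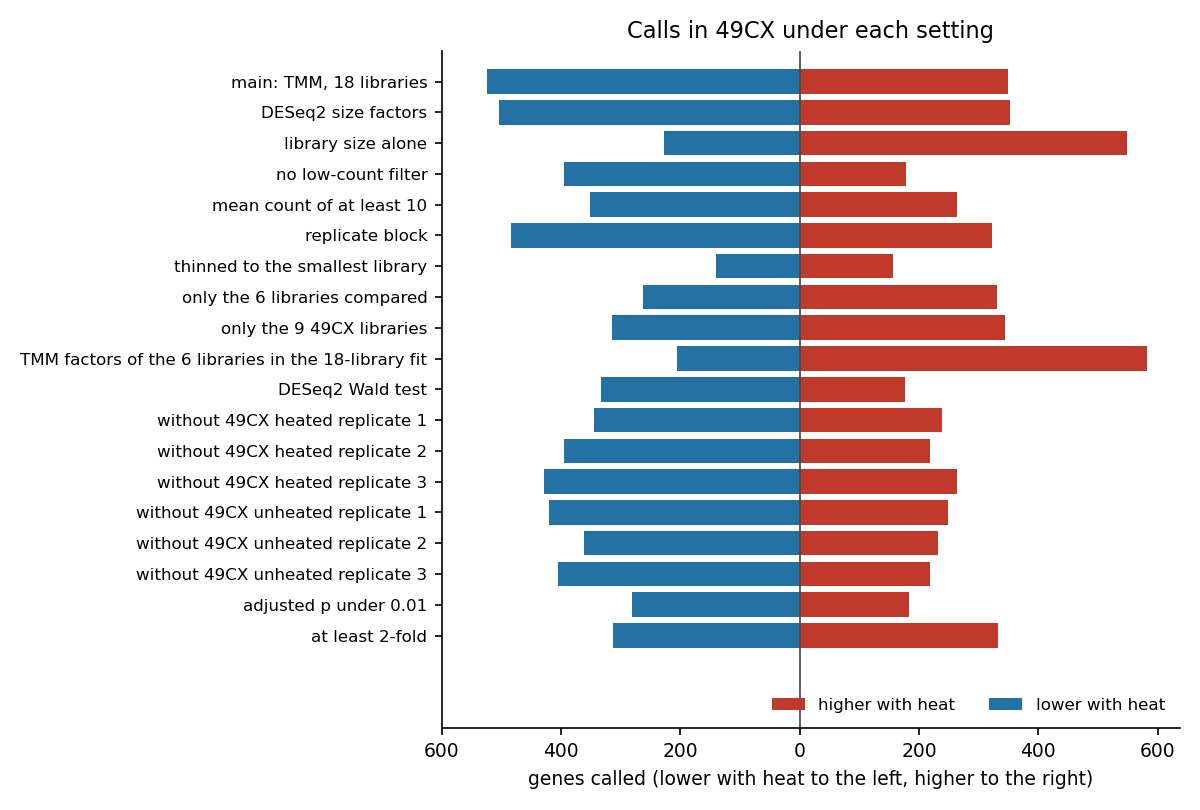
Genes called in heated against unheated 49CX under each setting: bars to the left count genes lower with heat and bars to the right genes higher with heat. The top bar is the reported fit, with 524 lower and 350 higher; by library size alone the split is 228 lower and 549 higher.

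The calls were also counted by expression level. In the upper of 4 equal bins of genes by mean level over the 18 microspore libraries (mean log2 CPM 6.57 to 11.19), 77 genes were called higher and 337 lower, 17.7% of 2344. In the lowest bin (4.03 to 5.49), 113 were called higher and 41 lower, 6.57% of 2344. The bins between them, from low to high, had 79 higher and 47 lower (5.38%) and 81 higher and 99 lower (7.68%), so the called share did not rise steadily with level. The median standard error of a log2 change was 0.33 in the highest bin and 0.89 in the lowest. The called genes nearest to 0 had log2 changes of 0.53 and -0.37 in the highest bin and of 1.43 and -0.90 in the lowest, so smaller changes of rare transcripts were not detectable at this depth.

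**Figure D2:**
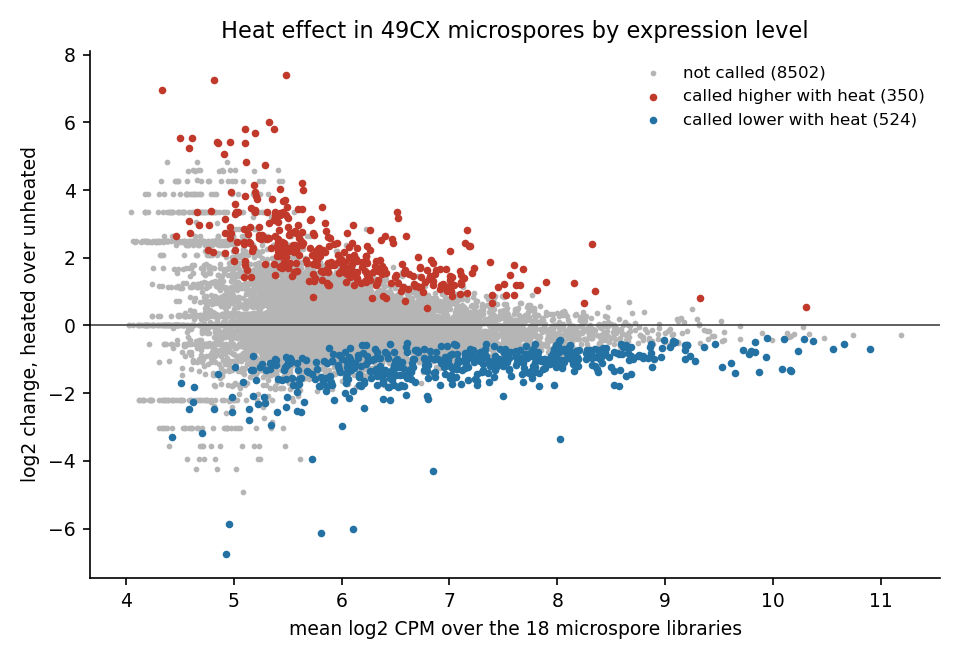
Log2 change in heated over unheated 49CX (y) against mean log2 CPM over the 18 microspore libraries (x), 1 point per gene. The 350 genes called higher are spread over the levels, with 113, 79, 81 and 77 in 4 equal bins from low to high. Of the 524 called lower, 337 are in the highest bin. Stripes at the left are genes with a few counts in all.

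The IDs with the largest changes are extremes, named after requiring a call and groups that did not overlap. Their lack of overlap and their p-values for this comparison are thus no further test. A count of 0 at this depth does not show absence. BraC07g015710.1 had 6, 22 and 9 counts in the heated libraries and 0 in each unheated library. On the TMM scale (CPM with composition factors) this was 54.2, 188 and 110 CPM in heated libraries, whose mean was 118 ± 67.4 (SD, n = 3). The groups did not overlap, and against the floor of 3 counts over the unheated group the mean was at least 15.5-fold higher with heat (edgeR, adjusted p = 4.94e-09). In 49CX late microspores the ID had 51.6, 68.5 and 42.5 CPM, all above the unheated libraries and overlapping the heated ones, and heated against late was not called (edgeR, adjusted p = 0.089). It had 50.8 ± 32.7 CPM in heated and 3.005 ± 2.71 CPM in unheated K2 (SD, n = 3), where it was called higher as well (edgeR, adjusted p = 3.19e-06). The 3 libraries of 49CX leaf held 95 of its counts in all.

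BraC03g047550.1 had 10, 14 and 9 counts in the heated libraries and 0 in each unheated library. Its level was 90.4, 120 and 110 CPM with heat, with a mean of 107 ± 15.1 (SD, n = 3), at least 14.1-fold higher than the floor without heat (edgeR, adjusted p = 4.09e-07). It was rare in late 49CX microspores, at 20.6, 0 and 31.9 CPM. Relative to late microspores it was called higher with heat (log2 change 2.46, SE 0.70, adjusted p = 0.00409, edgeR) and lower without heat (adjusted p = 0.0304). In K2 it had 22.8 ± 14.2 CPM with heat and 9.93 ± 9.59 CPM without (SD, n = 3), with overlapping groups and no call (edgeR, adjusted p = 0.224). The heat effect of the lines differed for this ID (edgeR interaction, adjusted p = 0.00422).

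Among the lowered IDs, BraC07g018460.1 had 0 counts in each heated library and 6, 8 and 16 in the unheated ones. The unheated level was 59.9, 59.8 and 98.9 CPM, with a mean of 72.9 ± 22.5 (SD, n = 3), so the heated level was at least 7.51-fold lower (edgeR, adjusted p = 1.22e-05). Each late 49CX library held 1 count of it. K2 showed the same order, with 2.58 ± 4.47 CPM in heated and 214 ± 63.5 CPM in unheated microspores (SD, n = 3; edgeR, adjusted p = 9.17e-22).

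BraC06g025370.1 also had 0 counts in each heated library, against 9, 2 and 8 in the unheated ones. The 2 counts of unheated replicate 2 lie under the floor of 3 counts. The unheated level was 89.9, 14.96 and 49.5 CPM, and the heated level was at least 5.30-fold lower than their mean of 51.4 ± 37.5 (SD, n = 3; edgeR, adjusted p = 0.000962). Late 49CX libraries held it at 20.6, 41.1 and 138 CPM, which overlaps the unheated range. It was not called in K2, with 110 ± 29.1 CPM in heated and 73.5 ± 6.39 CPM in unheated microspores (SD, n = 3; edgeR, adjusted p = 0.197). The difference between the lines was called (edgeR interaction, adjusted p = 9.66e-05).

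**Figure D3:**
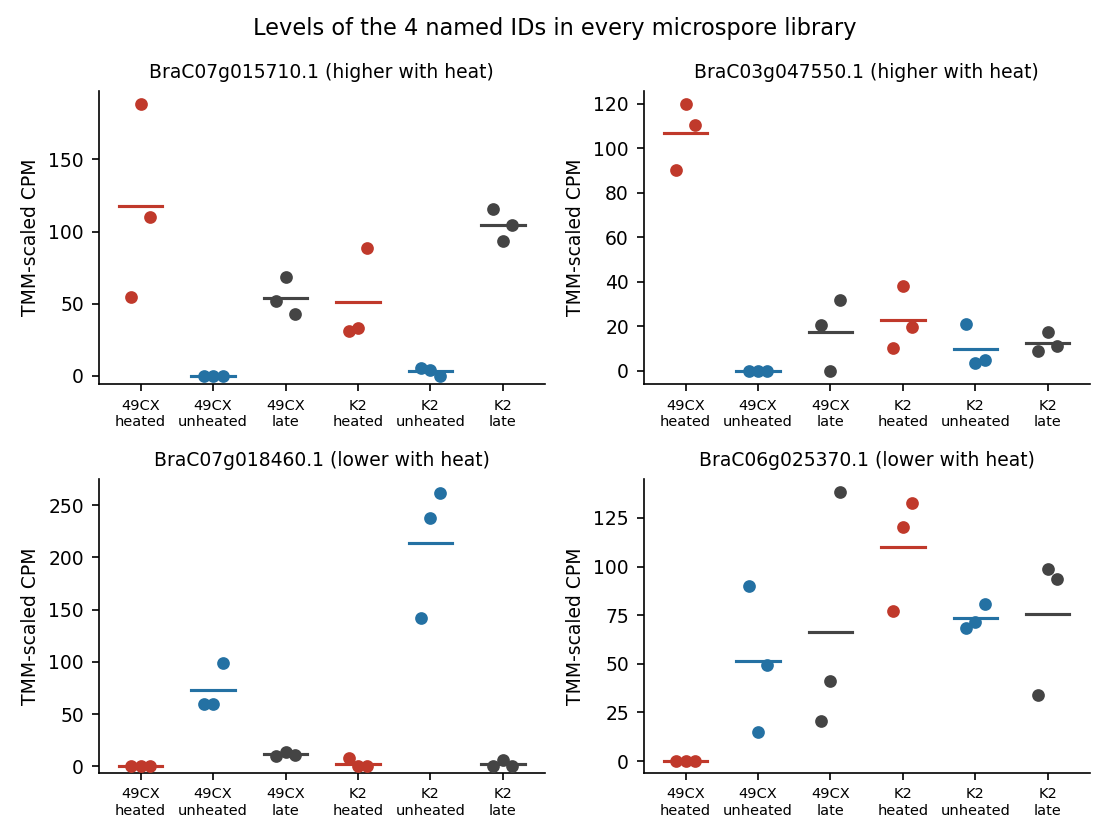
TMM-scaled CPM of the 4 named IDs (panels) in each microspore library (points) with group means (lines), for 49CX and K2. The upper IDs are at 0 in all 3 unheated 49CX libraries, and the lower IDs at 0 in all 3 heated ones.

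Counts of 0 throughout a group were rare among the called genes. Of the 350 genes called higher, 16 had 0 counts in every unheated library, and 14 of these had counts in late microspores. Of the 524 called lower, 3 had 0 counts in every heated library, and all 3 had counts in late microspores.

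The next question was which tissue programmes the heat response touched. Gene sets were built from K2 leaf, pollen and embryo libraries, with no 49CX library: 500 pollen, 209 embryo and 500 leaf IDs, each at least 4-fold higher in its tissue than in the others. A single pollen library, and 2-, 4- and 8-cell embryos, defined them. In bulk RNA, fewer cells of a type and less RNA per cell cannot be told apart. The leaf set held 17.0% ± 1.78 of gene counts in 49CX leaf (SD, n = 3) and 0.238% to 0.393% in the heated and unheated 49CX libraries, while the pollen set held 15.5% to 20.1% there.

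Pollen set transcripts took a smaller share of the RNA with heat. They held 15.5%, 16.1% and 16.2% of gene counts in the heated libraries and 19.6%, 20.1% and 18.9% in the unheated ones, with 6.79% ± 0.288 in late microspores (SD, n = 3). All heated libraries were below all unheated ones and above all late ones. Of the 366 members that passed the low-count filter, 10 were called higher and 62 lower (2.73% and 16.9%, against 3.73% and 5.59% of all genes). Their median log2 change was -0.32, against -0.01 for all genes. By library size alone 17 were higher and 23 lower, with a median of -0.06. For all 9376 genes that scaling gave 549 higher and 228 lower, with a median of 0.23. Without the 50 most abundant genes the set's difference, heated minus unheated, was -0.783 percentage points, against -3.59 with them.

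Embryo set transcripts were slightly higher with heat. They held 0.406%, 0.441% and 0.433% of gene counts in heated, 0.308%, 0.339% and 0.348% in unheated and 0.282%, 0.333% and 0.323% in late libraries. The heated libraries did not overlap the others. Of the 82 members that passed the filter, 7 were called higher and 3 lower (8.54% and 3.66%, against 3.73% and 5.59% of all genes). With genes at 0 in a group set at their bound and 19 rare members left out, the median log2 change was 0.77, against -0.04 for all genes so treated. The difference in share, heated minus unheated, was 0.0949 percentage points, and 0.0437 for the smaller set of IDs at least 8-fold higher in embryos. With no filter the fitted median over all 209 members was 0.19, and in the fit of the 6 libraries it was 0.14 over the 13 members tested. A member could pass the filter through heated K2 alone, and 11 members had 0 counts in 1 of the groups compared.

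Leaf set transcripts were higher with heat as a share, at 0.393%, 0.345% and 0.390% in heated and 0.242%, 0.238% and 0.248% in unheated libraries, again without overlap. Both lay below the late libraries, which held 0.684%, 0.748% and 0.802%. Of 173 members that passed the filter 2 were called higher and 0 lower (1.16% and 0%, against 3.73% and 5.59% of all genes). Few single genes thus carried a call. Many of the 173 were rare in 49CX: 79 had at most 3 counts in both groups, and 45 had 0 counts in 1 of the groups. The fit of the 6 libraries tested 4 members, with a median log2 change of -0.047. In K2 the leaf set share was lower with heat, at 0.508% ± 0.0255 in heated and 1.04% ± 0.0885 in unheated libraries (SD, n = 3).

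The shares were compared by exact 2-sided permutation tests. With 3 libraries a group the smallest p is 0.1, which the pollen, embryo and leaf sets, and the 4 sets from K2 microspores described below, reached (adjusted p = 0.111 over 10 library-level values). These tests cannot pass a threshold of 0.05.

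Sets from the K2 microspore libraries asked how far 49CX followed the changes of the inducible line. The 500 IDs raised most in unheated over late K2 (unheated-raised) held 23.2%, 24.5% and 24.4% of gene counts in heated, 31.1%, 31.7% and 29.6% in unheated and 9.24% to 10.02% in late 49CX libraries. Heated 49CX thus lay between the late and the unheated level. Of 482 members tested 18 were higher and 172 lower with heat in 49CX (3.73% and 35.7%, against 3.73% and 5.59% of all genes). Their median log2 change was -0.57. By library size alone 28 were higher and 100 lower, against 549 and 228 of all 9376 genes. The set's difference in share, heated minus unheated, was -6.76 percentage points, and -4.21 without the 50 most abundant genes.

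The 500 IDs lowered most in unheated against late K2 (unheated-lowered) held 0.578%, 0.588% and 0.637% in heated and 0.392%, 0.376% and 0.346% in unheated 49CX libraries, with 1.40% ± 0.0236 in late ones (SD, n = 3). Of 429 members tested 18 were called higher and 2 lower (4.20% and 0.466%, against 3.73% and 5.59% of all genes). The share called higher was thus near that of all genes. Most of the members were rare in 49CX, since 242 had at most 3 counts in both groups.

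The 500 IDs raised most by heat in K2 (heat-raised) held 1.24%, 1.23% and 1.23% of gene counts in heated 49CX and 0.541%, 0.516% and 0.564% in unheated 49CX. This was 2.28 times the unheated share. The late 49CX libraries held 1.001%, 1.01% and 1.07%, close to the heated ones and without overlap with either group. In K2, whose values chose the set, heated libraries held 9.18% ± 0.349 and unheated libraries 0.306% ± 0.0116 (SD, n = 3). Of 438 members tested in 49CX 48 were called higher and 0 lower (10.96% and 0%, against 3.73% and 5.59% of all genes). In the fit of the 6 libraries a member cannot pass the filter through K2, but can through the heated 49CX libraries alone. There 30 members were tested and 24 were called higher and 0 lower, with a median of 1.34. Over all 3139 genes of that fit, 331 were called higher and 262 lower. With genes at 0 in a group set at their bound and 183 rare members left out, 223 members lay above 0 and 32 below, with a median log2 change of 1.15. Of all genes so treated 4206 lay above 0 and 4567 below, with a median of -0.04.

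The 500 IDs lowered most by heat in K2 (heat-lowered) held 24.7%, 26.2% and 26.3% in heated and 33.8%, 34.0% and 31.6% in unheated 49CX, with 12.8% ± 0.364 in late 49CX (SD, n = 3). Of 490 members tested 12 were higher and 182 lower (2.45% and 37.1%, against 3.73% and 5.59% of all genes). By library size alone 20 were higher and 107 lower, against 549 and 228 of all 9376 genes. The unheated-raised and heat-lowered sets share 291 IDs and the unheated-lowered and heat-raised sets share 146. All 4 sets rest on the unheated K2 libraries, so they are not separate observations. The tissue sets overlap them as well: 38 of the 209 embryo IDs are in the heat-raised set, and of the 500 pollen IDs 77 are in the unheated-raised and 64 in the heat-lowered set.

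**Figure D4:**
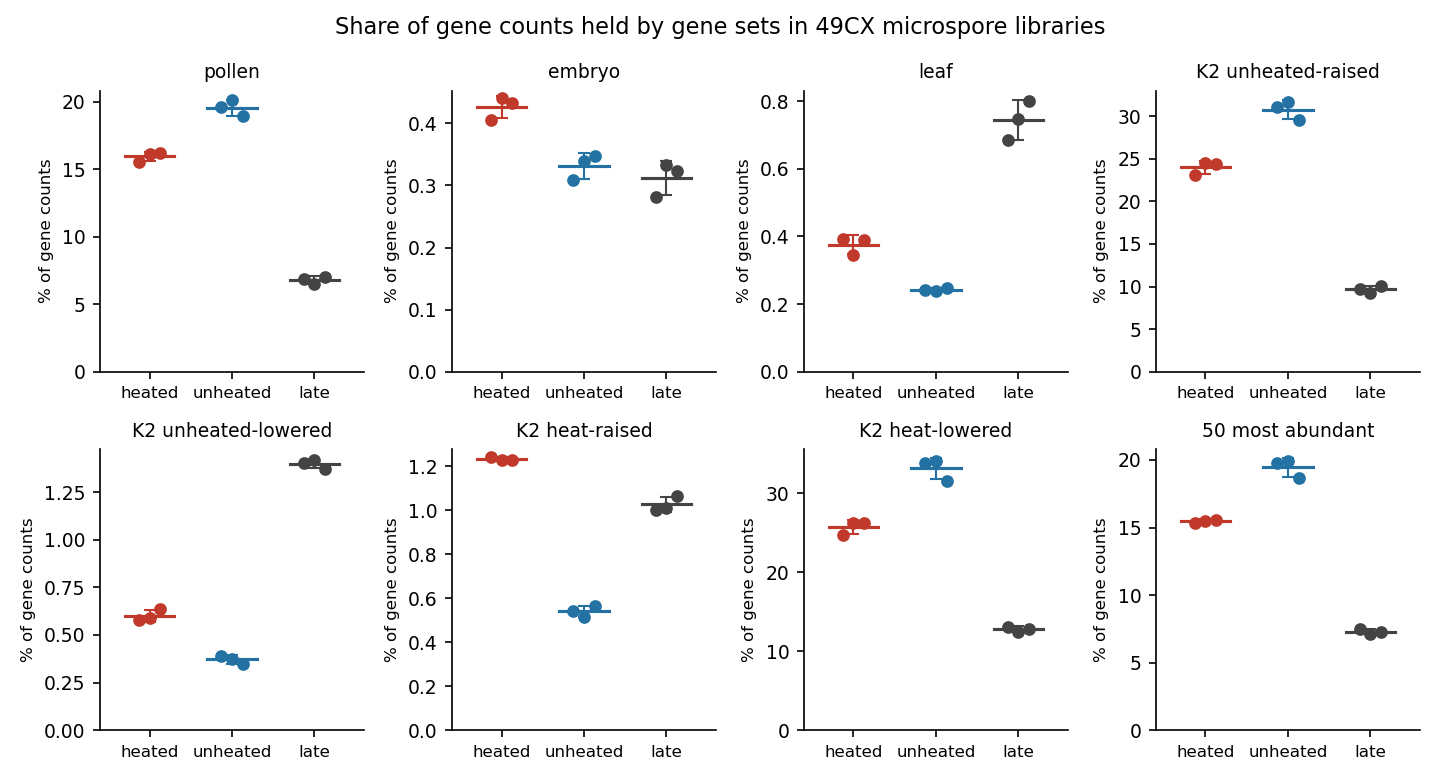
Share of gene counts (y, percent) held by each gene set (panels) in the heated, unheated and late 49CX libraries; points are libraries, lines are means and bars are SD (n = 3). The pollen, unheated-raised, heat-lowered and most abundant genes are lower in heated than in unheated libraries, and the embryo, leaf, unheated-lowered and heat-raised sets are higher.

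The most abundant transcripts of 49CX took a smaller share with heat. The 50 IDs with the highest mean share over the 6 libraries included 32 pollen set and 45 unheated-raised members. Together they held 15.4%, 15.5% and 15.6% of gene counts in heated and 19.8%, 19.96% and 18.6% in unheated 49CX. No permutation test was run on this summed share. Of these 50, 0 were called higher and 29 lower (0% and 58%, against 3.73% and 5.59% of all genes). Their median log2 change was -0.45. By library size alone 0 were higher and 17 lower (median -0.19), against 549 and 228 of all 9376 genes (median 0.23). With factors from the 6 libraries 1 was higher and 15 lower, against 582 and 206 of all genes. In K2 the 50 IDs together held 0.106% ± 0.00923 in heated and 10.4% ± 0.0964 in unheated libraries (SD, n = 3). There 49 were called lower and 1 higher, where 28.8% of all genes were called lower and 27.6% higher. The heat effect was lower in K2 than in 49CX for 49 and higher for 1 (edgeR interaction), against 1521 and 836 of all 9376 genes. The 6 libraries compared chose the 50 IDs, so their 49CX counts are a description.

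More genes were detected at a common depth with heat. At a common depth of 50000 gene counts, 14289, 14049 and 14153 genes were detected in the heated libraries and 11702, 11522 and 11822 in the unheated ones. The means were 14163 ± 120 and 11682 ± 151 genes (SD, n = 3), without overlap, and late 49CX libraries gave 16227, 17271 and 17900. These values are matched for total gene counts only. The share of reads in no gene was not matched, and its part was not tested. The exact permutation test of heated against unheated gave p = 0.1, the smallest possible (adjusted p = 0.111). This number and the share of the most abundant genes come from the same counts, so they are not separate observations.

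The heat response of the lines was then compared gene by gene. The lines share no library in these contrasts. Of the 524 genes lower with heat in 49CX, 429 were also lower and 14 higher in K2, or 81.9% and 2.67%, where 56.4% of all genes were called, 28.8% lower and 27.6% higher. Of the 350 genes higher in 49CX, 178 were also higher and 49 lower in K2, or 50.9% and 14.0%. The genes lowered by heat in 49CX were thus mostly lowered in K2, and by more. Their median log2 change was -1.10 in 49CX and -2.61 in K2.

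Shared direction did not always mean equal size. Of all genes tested, 25.1% had a called difference in heat effect between the lines. Among the 429 genes lower in both lines, the effect differed for 269, and for 267 of these K2 fell further (edgeR interaction). Among the 178 higher in both, the effect differed for 35, of which 33 rose further in K2. For 143 of the 178 a difference was not shown. The medians of those 178 were 2.04 in 49CX and 2.30 in K2. All 49 genes higher in 49CX and lower in K2, and all 14 with the reverse pattern, had a called interaction. Calls of opposite direction in the same fit chose these genes, so their called interaction was nearly given and is no further test. Of the 123 genes higher in 49CX and not called in K2, 59 had a called interaction, and of the 81 lower in 49CX and not called in K2, 28 had. For the other 64 and 53 a difference between the lines was not shown.

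The 49CX calls were also counted by the size of the K2 change. Of all genes tested, 3.73% were called higher and 5.59% lower in 49CX. Of 1078 genes raised at least 4-fold in K2, 100 were called higher and 1 lower in 49CX (9.28% and 0.0928%), with a median 49CX log2 change of 0.72. Of 1188 raised 2- to 4-fold in K2, 65 were higher and 4 lower (5.47% and 0.337%, median 0.35). Of 324 raised under 2-fold, 13 were higher and 9 lower (4.01% and 2.78%, median 0.04). Of 1385 lowered at least 4-fold in K2, 29 were higher and 298 lower in 49CX (2.09% and 21.5%), with a median of -0.47 in 49CX and -3.61 in K2. Of 955 lowered 2- to 4-fold, 18 were higher and 89 lower (1.88% and 9.32%, median -0.37). Of 360 lowered under 2-fold, 2 were higher and 42 lower (0.556% and 11.7%, median -0.35), so on the lowered side the called share did not follow the size of the K2 change throughout. Of the 4086 genes not called in K2, 123 were higher and 81 lower in 49CX (3.01% and 1.98%, median 0.01). In all, 25.1% of genes had a called difference in heat effect between the lines.

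**Figure D5:**
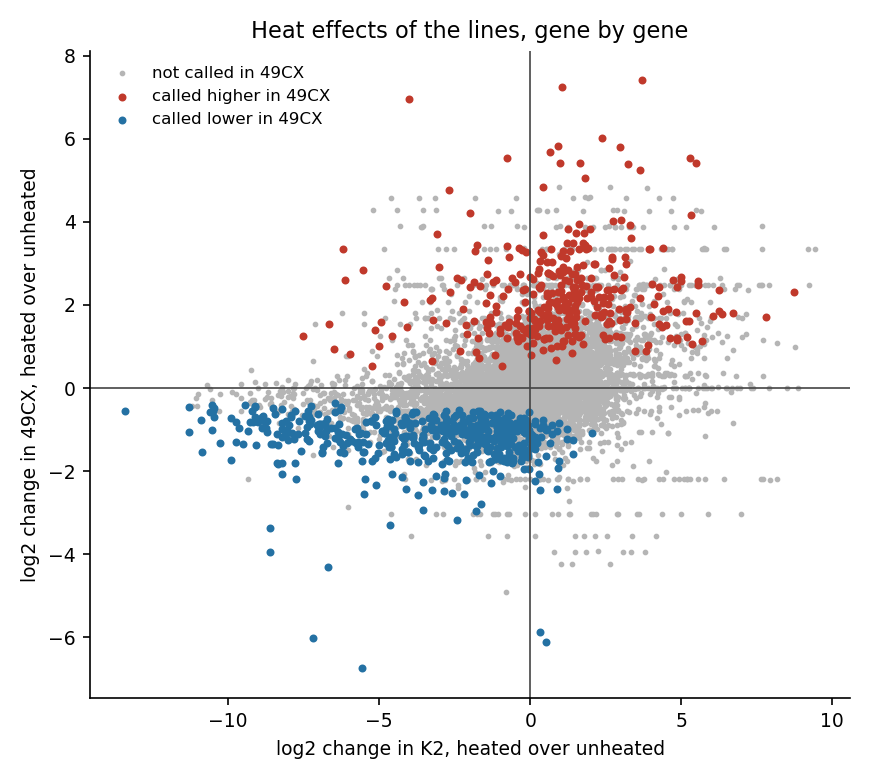
Log2 heat effect in 49CX (y) against that in K2 (x), 1 point per gene, coloured by the call in 49CX. Genes called lower in 49CX lie mostly on the left, where K2 values reach far below those of 49CX; genes called higher in 49CX lie on both sides.

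The levels of the genes called in the heat comparison were also read in late microspores. Of the 350 genes higher with heat, the late mean lay between the heated and unheated means for 218, below both for 92 and above both for 40. Of the 524 lower with heat, it lay below both for 292, between them for 183 and above both for 49. Their median level was 156 CPM in heated, 339 CPM in unheated and 128 CPM in late libraries. The heated and unheated values chose these genes, so the counts are a description. Against late microspores 20.5% of genes were called in heated and 27.2% in unheated 49CX; both comparisons share the late libraries.

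The called genes were last read in pollen and leaf. In the single K2 pollen library, 91 of the 350 genes higher with heat and 220 of the 524 lower (42.0%) reached 10 CPM, against 26.6% of all genes tested. In 49CX leaf, 58.9% of the genes higher and 63.2% of those lower reached 10 CPM, against 69.1% of all.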

How the data were processed

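Per the labels' protocols, RNA of isolated cells was made into strand-specific libraries by a low-input method. The authors deposited raw counts of reads for each gene ID, without normalization. Per the submitters' processing notes the tools included Trim Galore, HISAT2, Picard and HTSeq; for their versions, the strand setting, the build and the annotation: not given in the sources used here. Rows naming no gene stayed out of all totals (ambiguous reads were 0.240% to 0.365% in the 6 libraries; reads in no gene are given in the report).

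Counts of the 18 microspore libraries were fitted together with edgeR 4.0.16 (R 4.3.3; robust quasi-likelihood, TMM factors, filterByExpr, Benjamini-Hochberg over 9376 genes), and checked on simulated data. DESeq2 1.42.0 was an alternative. Tissue sets came from K2 leaf, embryo and 1 pollen library (2 pollen libraries held 0 gene counts), the other sets from the 9 K2 microspore libraries (adjusted p under 0.05, at least 4-fold, at most 500 IDs by fold). Genes at a common depth are expected numbers under thinning. Replicate libraries differed by more than sampling noise (chi-square per degree of freedom 1.15 to 1.58). The 4 named IDs had the largest log2 changes, 2 in each direction, after requiring a call, groups that did not overlap and an average of 3 or more log2 CPM. The sets, members and rules were chosen with earlier results of these data known. Floors account for counting error alone; without molecular identifiers, reads are not independent molecules.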

Additional observations from a re-analysis of the deposited data

Results flagged for a closer look

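The heat effect differed between the lines by the interaction test for 2 of the 4 named IDs. For BraC03g047550.1 the log2 difference, K2 minus 49CX, was -6.19 (SE 1.79, edgeR, adjusted p = 0.00422). For BraC06g025370.1 it was 6.65 (SE 1.46, edgeR, adjusted p = 9.66e-05). Each rests on a 49CX group with 0 counts, so the size depends on the prior count of the fit. Over all genes 2357 of 9376 had a called difference.

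The leaf set share of gene counts moved in opposite directions in every library of the lines: it was 0.133 percentage points higher with heat in 49CX and changed by -0.536 percentage points with heat in K2. This difference between the lines was not tested.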

How the results depend on the processing

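For 49CX heated against unheated (874 called, 350 higher and 524 lower), DESeq2's size factors gave 353 and 505 and a mean count of at least 10 gave 264 and 352. Counts moved over 1.5 times under these settings: no low-count filter (574 called, 178 higher), thinning to the smallest library (297 called, 157 higher and 140 lower of 3088 tested), DESeq2's Wald test (510 called, 176 higher and 334 lower), adjusted p under 0.01 (464 called, 183 higher and 281 lower), and at least 2-fold (313 lower). Library size alone gave 549 higher and 228 lower, the factors of the 6 libraries (chosen after seeing the data) 582 and 206, the 6 libraries alone 262 lower, and the 9 49CX libraries alone 344 higher and 315 lower. Over the 3139 genes of the 6-library fit, the median log2 change was 0.0037 there and -0.29 with the factors used. The cause of the other moves was not tested. Leaving out 1 library gave 583 to 693 called genes, 218 to 264 higher and 345 to 429 lower. Without heated replicate 2, unheated replicate 2 or unheated replicate 3 the number higher was 219, 232 or 218, and without heated replicate 1 the number lower was 345. The interaction gave 2357 calls, 1000 after thinning, and 2080 to 2421 without 1 library.

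Same-numbered heated and unheated libraries showed no shared deviation (r of deviations -0.0358, 0.000884 and -0.0182). Counting noise at this depth could hide one, so these values cannot decide whether the numbers pair the libraries. With the replicate number as a block 807 genes were called, 323 higher and 484 lower, and 2246 for the interaction. The shares of counts kept their direction without 1 library. The replicate block (exact sign-flip test, smallest possible p = 0.25) leaves a balanced mean difference unchanged, so it could not test the direction. The 2-fold setting left the difference unchanged for every set but embryo, and the 8-fold setting for the leaf, heat-raised and heat-lowered sets. For those sets these settings were no further test. Where the difference did change, its direction was kept: embryo at 2-fold, and pollen, embryo, unheated-raised and unheated-lowered at 8-fold. The named IDs kept their calls wherever they were tested, but not every setting tested them. After thinning to the smallest library they were not tested. Only BraC03g047550.1 was tested in the fits of the 6 libraries and of the 9 49CX libraries. DESeq2's Wald test gave no adjusted p for that ID. With 3 shallow libraries a group, small changes of rare transcripts were not resolved.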
